A study of Homo sapiens with 2 samples.

Results

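The miRNAs of the miR-371 to miR-373 cluster, the primate-specific cluster beside it on chromosome 19 and 2 further names were taken from arrays of the human liver cancer line HepG2, which derives from a hepatocellular carcinoma by its label. Members were chosen by name: every human miRNA probe name from miR-371 to miR-373, miR-498, and every one from miR-512 to miR-527, with any letter, arm or star suffix. This gave 42 of the 718 probe names on the array. Per the labels, the samples were 1 array for control cells and 1 for cells given TCDD (10 nM, 48 h), with Cy3 as the dye and the same line and medium in both groups. The latter is called the TCDD array here, by its label. TCDD (tetrachlorodibenzo-p-dioxin), a ligand of the aryl hydrocarbon receptor, is a persistent pollutant, and the series asked how it affects a liver cancer line. With 1 array in each group no difference has a replicate check, and neither a test nor a standard error was possible. Precision is limited by the number of arrays, and the labels do not tell whether the cultures were separate.

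A miRNA hairpin yields mature strands from its 5p and 3p arms, and the star in older names marks the strand thought to be the less abundant. Bases 2 to 8 of the strand, the seed, do most of the target recognition. The primate-specific cluster on chromosome 19 is a long imprinted array of repeated miRNA genes, expressed from the paternal copy mainly in placenta and also in embryonic stem cells, and it is known to be switched on in some tumours, liver cancers among them. The neighbouring miR-371 to miR-373 cluster is active in embryonic stem cells and in germ cell tumours. Adult liver is not a usual site of either.

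The label was checked by position, and for 1 name by the name alone. Of the 42 members, 41 matched a mature sequence in RefSeq (GRCh38.p14), directly or through a change of name, and miR-518f did not. Of the matched names 39 lay on chromosome 19, and miR-518f was placed there by its name alone, without a position. Of these 40, 5 are in the miR-371 to miR-373 cluster and 35 in the primate-specific cluster. The names miR-513-3p and miR-514 matched miRNAs of chromosome X and belong to neither. The label therefore holds by position for 39 names, and the pair from chromosome X is given apart.

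The line showed strong signals for liver miRNAs miR-192 (fluorescence of 15121 in control and 15920 on the TCDD array) and miR-194 (5190 and 8522), whereas the hepatocyte miRNA miR-122a gave a weak signal (194 and 193) and miR-148a lay under 100 on both arrays. None of 6 blood miRNAs, 4 muscle miRNAs or 5 embryonic stem cell miRNAs (miR-302a to miR-302d and miR-367) was above 100 on either array. The deposited values run upward from 50, a smallest value shared by 343 names in control and 257 on the TCDD array. A fluorescence of 100 was used as the floor, and names at or under it are called undetected. Fluorescence here is 2 to the power of the deposited log2 value. Brightness depends on the probe as well as on the miRNA, so no member's level is set against another's as a ratio.

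The 6 detected members carry the results and are printed as mature RNA from RefSeq, 5′ to 3′, with the seed (bases 2 to 8) in capitals. Each lies in a miRNA gene of its own on chromosome 19.
miR-371-5p (now miR-371a-5p), chr19:53787680-53787699, plus strand: aCUCAAACugugggggcacu
miR-372 (now miR-372-3p), chr19:53787931-53787953, plus strand: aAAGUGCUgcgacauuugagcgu
miR-373* (now miR-373-5p), chr19:53788710-53788731, plus strand: aCUCAAAAugggggcgcuuucc
miR-498 (now miR-498-5p), chr19:53674230-53674252, plus strand: uUUCAAGCcagggggcguuuuuc
miR-517c (now miR-517c-3p), chr19:53741369-53741390, plus strand: aUCGUGCAuccuuuuagagugu
miR-520a-3p, chr19:53690933-53690954, plus strand: aAAGUGCUucccuuuggacugu

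HepG2 cells gave a dim signal for a few members of both chromosome 19 clusters and none above the floor for the rest. In control, 6 of 42 members (14.3%) were detected, against 31.6% of all probe names. On the TCDD array it was again 6 (14.3%), against 33.0% of all names. They were the same 6 miRNAs on both arrays, and no member was detected on 1 array alone. Over either array the share was 14.3% of members and 33.7% of all names. Outside the members, 216 of 628 human miRNA names (34.4%) were detected on at least 1 array. The clusters differed in how many of their names were seen: 3 of 5 in the miR-371 to miR-373 cluster, 3 of 35 (8.57%) in the primate-specific cluster, and none of the pair from chromosome X.

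In the miR-371 to miR-373 cluster the detected strands were mostly not those the cluster is best known for. miR-373*, the 5p strand of the miR-373 hairpin, had a fluorescence of 373 in control and 355 on the TCDD array. miR-373 itself, the 3p strand reported to promote migration of tumour cells, was at the smallest value in control and at 54.7 on the other array, so it was undetected. The star strand was thus above the floor on both arrays and its partner on neither. miR-371-5p was at 338 in control and 296 on the TCDD array, while miR-371-3p, known as a serum marker of germ cell tumours, was at the smallest value on both. miR-372, first described as an oncogenic miRNA of testicular germ cell tumours, was the only 3p strand of the cluster above the floor, with 167 in control and 172 on the TCDD array. The opposite strand of miR-372 is not among the probe names analysed here.

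In the primate-specific cluster 3 members were detected. miR-520a-3p, which shares its seed with miR-372, had 325 in control and 232 on the TCDD array. miR-517c, one of the miRNAs abundant in placenta, had 272 and 278. miR-498, near the start of the cluster, had 135 and 130, not far above the floor. The strands of miR-520a-3p and miR-517c come from the 3p arm and that of miR-498 from the 5p arm. Their hairpins are not neighbours: in RefSeq the mature strand of miR-498 starts at position 53674230, that of miR-520a-3p at 53690933 and that of miR-517c at 53741369, with undetected members between them.

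**Figure D1:**
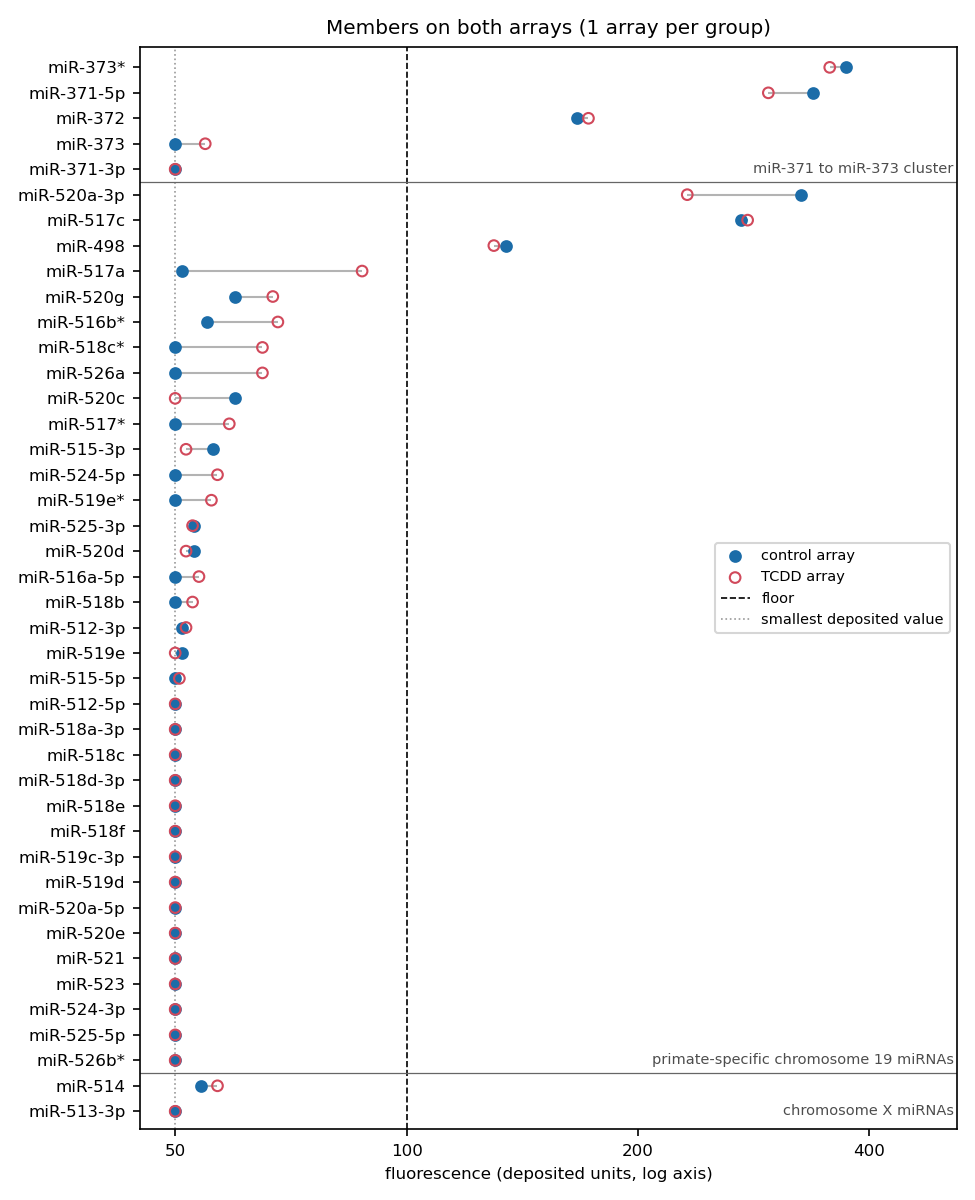
Fluorescence of all 42 members (log axis, deposited units) on the control array (filled) and the TCDD array (open), 1 array per group, with the floor at 100 (dashed) and the smallest deposited value of 50 (dotted). The 6 detected members lie between 130 and 373 and the other 36 lie under the floor on both arrays.

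All 6 detected members ranked past the midpoint of the detected names on both arrays, with the caution that a rank also reflects the probe. Ranked by control fluorescence, miR-373* was number 132 of the 227 names above the floor, miR-371-5p 139, miR-520a-3p 141, miR-517c 150, miR-372 186 and miR-498 210. On the TCDD array the ranks ran from 128 (miR-373*) to 212 (miR-498) of 237. Over the 6 members the median fluorescence was 298 in control and 254 on the TCDD array, and over the other 197 human names detected on both arrays it was 589 and 599.

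The 36 undetected members carried little graded signal. In control 26 of them were at the smallest value and the other 10 lay at or below 59.9. On the TCDD array 19 were at the smallest value and the highest of the others, miR-517a, reached 87.5. Over all 476 undetected names the counts at the smallest value were 339 in control and 257 on the TCDD array, so the members' 72.2% and 52.8% compare with 71.2% and 54.0%. Of the 36, 17 were at the smallest value on both arrays, among them miR-518a-3p, miR-518c, miR-518d-3p, miR-518e, miR-518f, miR-519d and miR-520e. The members nearest the floor from below were miR-517a (51.0 in control, 87.5 on the TCDD array), miR-516b* (54.9 and 68.0) and miR-520g (59.9 and 67.0). Just above it lay miR-498 and miR-372. No fold is given for a member under the floor on both arrays.

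The groups of the primate-specific cluster can be read one by one. The miR-518 names, whose matched 3p strands carry GCGC where those of miR-520 carry GUGC, were undetected in 7 of 7 cases, and all 7 were at the smallest value in control. None of 4 miR-519 names, none of 8 names from miR-521 to miR-526 and neither strand of miR-512, the first miRNA of the cluster, was detected. Of 6 miR-520 names miR-520a-3p was detected, and of 7 names from miR-515 to miR-517 miR-517c was. The highest value among the undetected miR-521 to miR-526 names was 64.9, of miR-526a on the TCDD array.

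The members were also counted by arm, and a difference between the arms was not tested. By RefSeq name or place in the hairpin, 13 members are 5p strands and 28 are 3p strands, with miR-518f left out. Of the 5p strands 3 were detected (23.1%), and of the 3p strands 3 (10.7%). At the smallest value were 10 of 13 5p strands in control and 3 of 13 on the TCDD array, whereas among 3p strands the count was 15 of 28 on both. Over all 718 names 47.8% were at the smallest value in control and 35.8% on the TCDD array. The 5p strands that left the smallest value all stayed under the floor, with miR-518c* and miR-526a the highest at 64.9 each.

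For 11 hairpins both strands were matched to a name on the array, and none had both detected. The 5p strand alone was above the floor for the miR-371 and miR-373 hairpins, the 3p strand alone for the miR-520a and miR-517c hairpins, and neither for the other 7. miR-520a-5p was at the smallest value on both arrays, against 325 and 232 for miR-520a-3p. The strand named miR-517*, which the miR-517a, miR-517b and miR-517c hairpins share, was at the smallest value in control and at 58.8 on the TCDD array. In the miR-302 and miR-367 cluster of chromosome 4, another embryonic cluster, 10 names are on the array. All 5 without a star were at the smallest value on both arrays, while miR-302d* was at 295 and 237 and miR-302c* at 100.2 and 92.7, across the floor. Neither strand of the miR-302a, miR-302b and miR-367 hairpins was detected. In both embryonic clusters, then, the strands above the floor were 5p strands except miR-372, whose opposite strand is not among the probe names. For the miR-302 and miR-367 cluster this rests on miR-302d*, the only name there detected on both arrays, and on miR-302c* near the floor. Over either array 2 of the 5 star names of that cluster (40%) were detected, beside 51 of all 155 human star names (32.9%). A preference for the 5p arm was not tested.

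**Figure D2:**
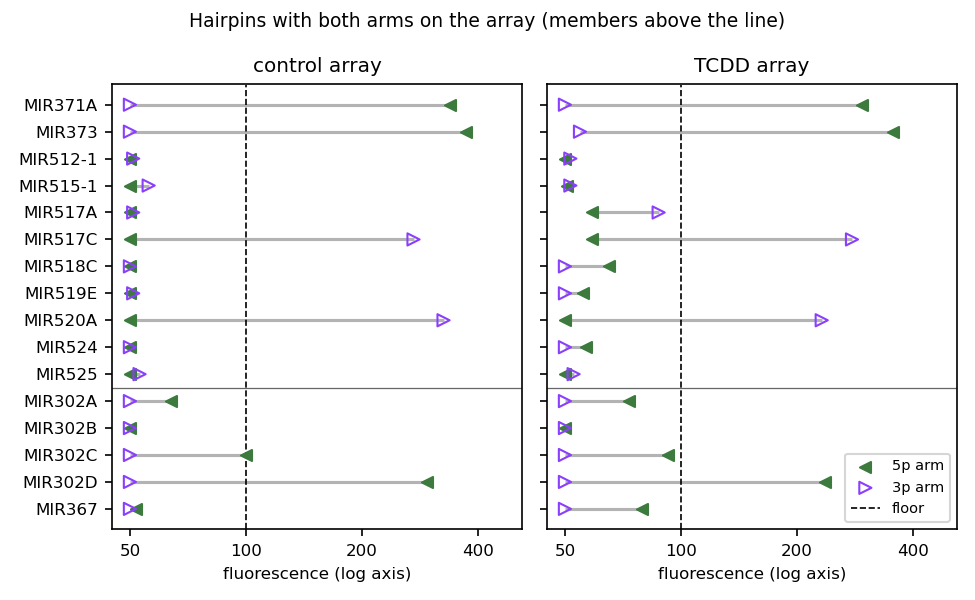
Fluorescence (log axis) of the 5p strand (filled) and 3p strand (open) of each hairpin with both strands matched to a name on the array. Control is on the left and the TCDD array on the right, with the floor at 100 dashed. MIR371A and MIR373 have the 5p strand above the floor, MIR517C and MIR520A the 3p strand, and of the miR-302 and miR-367 hairpins under the line MIR302D has its 5p strand above the floor on both arrays.

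The seed of miR-372 is carried by 6 members and by miR-302a to miR-302d, and they are shown because the same targets are predicted for strands with one seed.
miR-372: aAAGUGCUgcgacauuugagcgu
miR-520a-3p: aAAGUGCUucccuuuggacugu
miR-373: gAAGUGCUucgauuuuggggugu
miR-520c: aAAGUGCUuccuuuuagagggu
miR-520d:aAAGUGCUucucuuuggugggu
miR-520e: aAAGUGCUuccuuuuugaggg
miR-302a: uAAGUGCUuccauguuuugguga
Of these 6 members, miR-372 and miR-520a-3p were detected and the others were not. miR-520c was at 59.9 in control and the smallest value on the TCDD array, miR-520d at 53.0 and 51.6, and miR-520e at the smallest value on both. The 4 miR-302 strands with this seed were at the smallest value on both arrays. miR-17-5p, miR-20a, miR-93, miR-106a and miR-106b, proliferation-linked miRNAs of other chromosomes, have the seed AAAGUGC, offset by 1 base from AAGUGCU, as do miR-519d and miR-526b* among the members. Those 5 were bright, from 3085 (miR-20a) to 10561 (miR-106a) in control and from 3735 to 14203 on the TCDD array. Their differences (TCDD array minus control) ran from 0.14 to 0.43 on the log2 scale and were not tested. All 5 were above 0, against 105 of the 222 names detected on both arrays. The differences of those 222 names had a robust SD of 0.28. The members miR-519d and miR-526b* were at the smallest value on both arrays.

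The closest pair of members by sequence was miR-517a and miR-517c. They differ by 1 substitution, written U12C from miR-517c to miR-517a and counted from 1 at the 5′ end.
miR-517c: aUCGUGCAuccuuuuagagugu
miR-517a: aUCGUGCAucccuuuagagugu
miR-517c was detected on both arrays (272 in control, 278 on the TCDD array), and miR-517a on neither (51.0 and 87.5). miR-517b, from another hairpin of the cluster, has the RefSeq sequence of miR-517a and no probe name of its own among those analysed. Of 14 member pairs within 3 edits of each other (substitutions, insertions or deletions), 13 had no detected member, and the miR-517 pair had 1. miR-520a-3p was 4 edits from its closest members, miR-520c, miR-520d and miR-520g, all undetected. The deposited table holds 1 value per member and array, so whether these probes separate near-identical strands was not tested.

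A run of guanines was shared by the 3 detected 5p strands. The runs of 4 or more are in capitals below, with the members first and then the other 3 names with a matched sequence that hold a run of 5. The run was noticed after the values were seen.
miR-371-5p: acucaaacuguGGGGGcacu
miR-373*: acucaaaauGGGGGcgcuuucc
miR-498: uuucaagccaGGGGGcguuuuuc
miR-637: acuGGGGGcuuucgggcucugcgu
miR-615-5p: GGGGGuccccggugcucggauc
miR-302c*: uuuaacauGGGGGuaccugcug
Of 41 members with a sequence, 3 (7.32%) hold GGGGG, and of the 38 without it 3 (7.89%) were detected. The 3 that hold it are the strands in which the run was noticed, so their detection was fixed in advance. The search used the printed strand alone. Of the 250 human names on the array whose sequence could be matched, 6 (2.40%) hold it, those 3 members included. The other 3 were each above the floor on at least 1 array, against 62 of 206 names outside the members without it (30.1%). For miR-302c* (100.2 and 92.7) and miR-615-5p (97.3 and 107) this was by a narrow margin on 1 array, while miR-637 was at 190 and 205. Among 209 matched names outside the members, GGGG was held by 15, including the 3 with GGGGG already counted. Of the 15, 9 (60.0%) were detected, against 56 of 194 (28.9%) without GGGG. miR-373, the member with a run of 4, was undetected. GC content overlapped between the groups, with a median of 50.0% (range 40.9 to 55.0%) in the 6 detected members and 47.8% (31.8 to 59.1%) in the 35 undetected members with a sequence. Outside the members, its median was 56.5% in 65 detected names and 45.5% in 144 undetected names, with overlapping ranges. The median share of guanine was 30.4% and 23.8% in those names, and 28.6% and 23.8% in the members. The part of the run in these signals, apart from overall composition, was not tested.

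**Figure D3:**
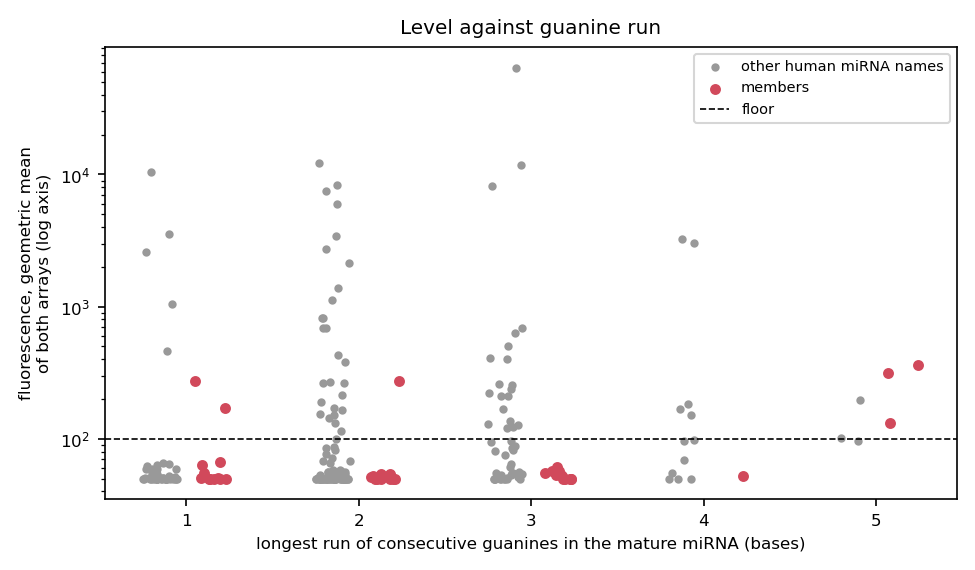
Fluorescence (geometric mean of both arrays, log axis) against the longest run of consecutive guanines in the mature strand, for 41 members (red) and 209 other human miRNA names with a matched sequence (grey), with the floor at 100 dashed. Points are spread sideways for legibility. The 3 members with a run of 5 lie above the floor and are the strands in which the run was noticed.

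Between control and TCDD the detected members differed little. None of the 6 was 2-fold or even 1.5-fold apart, against 2.89% of the 242 detected names at 2-fold and 7.44% at 1.5-fold. With 6 members, a count of 0 lies near both backgrounds and says little about the members. Their median log2 difference was -0.06, beside -0.01 over all 222 names detected on both arrays and a robust SD of 0.28 among those names. Of the 6, 4 were lower on the TCDD array, against 52.7% of the 222.

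miR-520a-3p had the furthest difference. Its fluorescence of 325 in control and 232 on the TCDD array is a log2 difference of -0.49, or 1.40-fold lower. Of the 222 names, 13 were as low or lower, that name included, and 24, again with it, were as far from 0 or farther in either direction. miR-371-5p was 1.14-fold lower, a log2 difference of -0.19, and 104 of the 222 names lay as far from 0 or farther. The remaining members differed by -0.07 (miR-373*), -0.05 (miR-498), 0.03 (miR-517c) and 0.05 (miR-372), each within the robust SD. miR-372, which shares its seed with miR-520a-3p, and miR-517c, from the cluster of miR-520a-3p, were so near 0 that their signs are not read as directions. Of the 222 names, 196 lay as far from 0 as miR-372 or farther, and 205 as far as miR-517c or farther. All directions rest on the deposited labels.

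**Figure D4:**
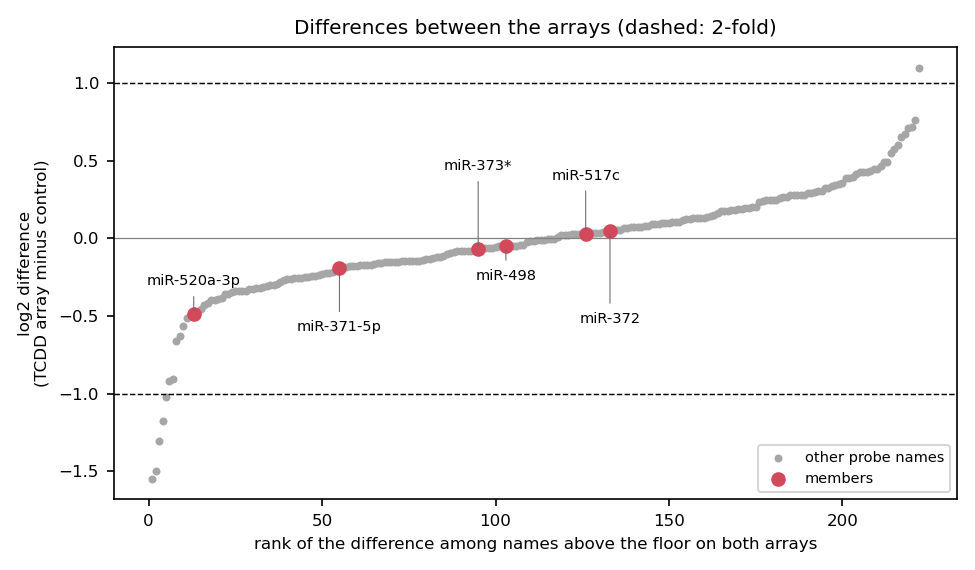
Log2 difference (TCDD array minus control) of the 222 names detected on both arrays, ordered by size, with the 6 detected members in red and dashed lines at 2-fold. miR-520a-3p is the lowest member at -0.49 and miR-372 the highest at 0.05.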

How the data were processed

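Total RNA of HepG2 cells was labelled with Cy3 by ligation of a dye-bearing linker, per the labels' protocols, and hybridised in a 2-colour format in which the other channel was not compared. The authors deposited log2 fluorescence, with 719 probes on each array. How the images were scanned, background-corrected and scaled, and whether RNAs were pooled, is not stated in the labels or files used here. The column medians correspond to 51.5 (control) and 56.8 (TCDD). The 2 probes named miR-340 were averaged, which left 718 names, of which 670 are human miRNA names. The floor was 100, which is 2 times the smallest value. Values under it were raised to it before the log2 difference was taken. Sequences and positions are from RefSeq (GRCh38.p14). Array names were matched exactly or by a written list of changed names. Of the 670, 250 matched.

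The text names each detected member, some of the undetected members above the smallest value or in a group described (the rest are counted with their groups), the miR-302 and miR-367 names, 5 miRNAs with an offset seed and the cell type lists. Names holding a guanine run were added after their values were seen. The members and lists were chosen with earlier results of these data known. No test was run, since each group is 1 array. The procedures were tested on simulated data. The simulated decreases were large and placed in names brighter than any member, so small differences of dim names were not covered. Alternatives were other floors, quantile normalization, median centring, a lowess trend (fraction 0.5), no floor, an added floor and other fold thresholds. Python 3.11.15, numpy 2.4.6, pandas 2.3.3, statsmodels 0.14.6 and matplotlib 3.10.9 were used.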

Additional observations from a re-analysis of the deposited data

How the results depend on the processing

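The count of detected members depended on the floor. With the smallest deposited value as the floor it was 16 in control, 23 on the TCDD array and 25 on at least 1 array, or 38.1%, 54.8% and 59.5% of the members, beside 52.2%, 64.2% and 67.0% of all names. At 4 times the smallest value (200), and at the 75th percentile of each array (180 and 172), it was 4 on each array: miR-372 and miR-498 were lost under both settings. Those 4 are 9.52% of the members, beside 24.4% of all names above the floor of 200 and 25.9% above the percentile on at least 1 array. Quantile normalization left it at 6. The count of members at least 2-fold apart stayed at 0 in all 8 alternatives run for it, which include thresholds of 1.5-fold and 3-fold. The 3-fold count was fixed at 0, since no member reached 2-fold. The median difference lay between -0.13 (floor of 200) and 0.02 (quantile normalization), where its sign turned, within the robust SD of 0.28. All 34 alternative values for single members stayed within that SD of the value reported, which is a loose bound. The SD is a spread among names and exceeds the difference of every detected member but miR-520a-3p. Removing the floor, or raising it to 200, could not move a member that lies above it. miR-520a-3p ran from -0.49 to -0.36, miR-371-5p from -0.19 to -0.005 and miR-373* from -0.07 to 0.04. miR-517c ran from 0.02 to 0.21, the upper value by quantile normalization, miR-372 from 0.03 to 0.10 and miR-498 from -0.07 to -0.03. The sign turned for miR-373* alone, but with 1 array per group the direction is settled for no member. No paired analysis was possible because there is a single array for control and a single one for TCDD. Leaving out a replicate could not be done either. Signals this near the floor limit what small differences can show.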
